A study of Mus musculus with 3 samples.

Results

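The genes described here are those by which a cell senses and answers a shortage of amino acids: the integrated stress response around the transcription factor ATF4, the serine, one-carbon and proline enzymes, amino acid transporters, and cytosolic tRNA synthetases. The members are a list of gene symbols, drawn up with earlier results of these data known, and all 38 were found among the 33605 symbols of the deposited tables. B cells lacking CD43, a protein that most resting splenic B cells do not carry, were taken from the spleens of C57BL/6 mice. They were grown for 3 days with LPS and IL4, which drive B cells to divide and to switch antibody class, and their RNA was sequenced. For those 3 days 1 culture had DMSO, another had JQ1+ (80 nM), and the last had flavopiridol (30 nM), with 1 library from each. The label of the culture repeats the DMSO wording for both drugs, so the groups follow the treatment label. JQ1 displaces BET bromodomain proteins from acetylated chromatin, and flavopiridol inhibits cyclin-dependent kinases including CDK9, which releases paused RNA polymerase. Every culture carried the same stimulus, so the tables hold no unstimulated B cells, and the labels leave unsaid whether 1 mouse, several or a pool supplied them.

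In the integrated stress response, kinases such as PERK (Eif2ak3), which senses unfolded protein in the endoplasmic reticulum, and GCN2 (Eif2ak4), which senses uncharged tRNA, phosphorylate the initiation factor eIF2. Most translation then drops while that of Atf4 mRNA increases, and ATF4 protein turns on genes for amino acid synthesis, uptake and tRNA charging. Because ATF4 is controlled mainly at translation, the level of Atf4 mRNA is not a measure of its activity. Activated B cells grow and divide quickly, and serine made in the cell feeds their one-carbon pool for nucleotide synthesis.

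Depth was similar, with total counts of 59786847 for DMSO, 51247080 for JQ1+ and 50184508 for flavopiridol. With 1 library per treatment no difference has a replicate check, no p-value is given, and whether a difference exceeds the spread between cultures is not known. Levels are RPKM, reads per kilobase of gene scaled to the library's total, so they can be compared between genes. A change is log2((RPKM + 1)/(RPKM + 1)). The words rose and fell are kept for changes of at least 1 in size (2-fold), and this rule was applied to the 14790 genes whose mean over the 3 libraries reached 1 RPKM, called tested genes below. Folds are ratios of plain RPKM with 95% intervals that cover counting error alone. In bulk RNA, fewer cells of a type and less RNA per cell cannot be told apart.

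The libraries held B cell RNA. The B cell genes Cd79a, Cd79b, Ms4a1, Cd22 and Pax5 stood between 137 and 2127 RPKM in all 3 libraries. Cd3e was at 0 in JQ1+ and flavopiridol, and Ncr1, which marks natural killer cells, at 0 in every library. The 6 T cell markers summed to between 2.51 and 2.69 RPKM per library, the 5 myeloid markers to between 7.48 and 13.96, the 4 cytotoxic markers to between 1.61 and 3.00, and the 2 erythroid markers found to between 1.60 and 2.07. Within the myeloid markers, Emr1 stood at 0.922 RPKM in DMSO, 0.801 in JQ1+ and 9.47 in flavopiridol. The 3 stromal and endothelial markers summed to 22.1 RPKM in DMSO, 5.29 in JQ1+ and 12.1 in flavopiridol, nearly all of it Pecam1, at 21.7 RPKM in DMSO, 5.18 in JQ1+ and 11.9 in flavopiridol. The 4 dendritic markers summed to 33.2 RPKM in DMSO, 6.96 in JQ1+ and 21.5 in flavopiridol. Flt3 stood at 26.6 RPKM in DMSO, 2.55 in JQ1+ and 14.6 in flavopiridol, and Zbtb46 at 6.63 RPKM in DMSO, 4.36 in JQ1+ and 6.85 in flavopiridol, while Siglech was at 0 in DMSO and flavopiridol and Itgax was at most 0.029. The 4 plasma cell genes summed to 599 RPKM in DMSO, 638 in JQ1+ and 515 in flavopiridol, and they differed in direction. Prdm1, the driver of plasma cell fate, stood at 26.9 RPKM in DMSO, 67.2 in JQ1+ and 56.5 in flavopiridol. In the same order Sdc1 stood at 13.4, 17.3 and 32.6 RPKM. Xbp1 stood at 556, 553 and 423 RPKM, and Tnfrsf17 at 2.16, 0.846 and 2.79. The part of these shifts in the results below was not tested.

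Most of the members were well expressed in activated B cells. Of the 38, 37 passed the minimum level. Vldlr alone did not, and Slc7a11 passed narrowly. The median level of the 38 was 119 RPKM in DMSO, against 19.2 for all 14790 tested genes, and Atf4 was the most abundant at 867 RPKM, above 98.3% of them. The members' reads ran from 18 counts, for Vldlr in JQ1+, to 39783, for Eprs in DMSO.

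**Figure D1:**
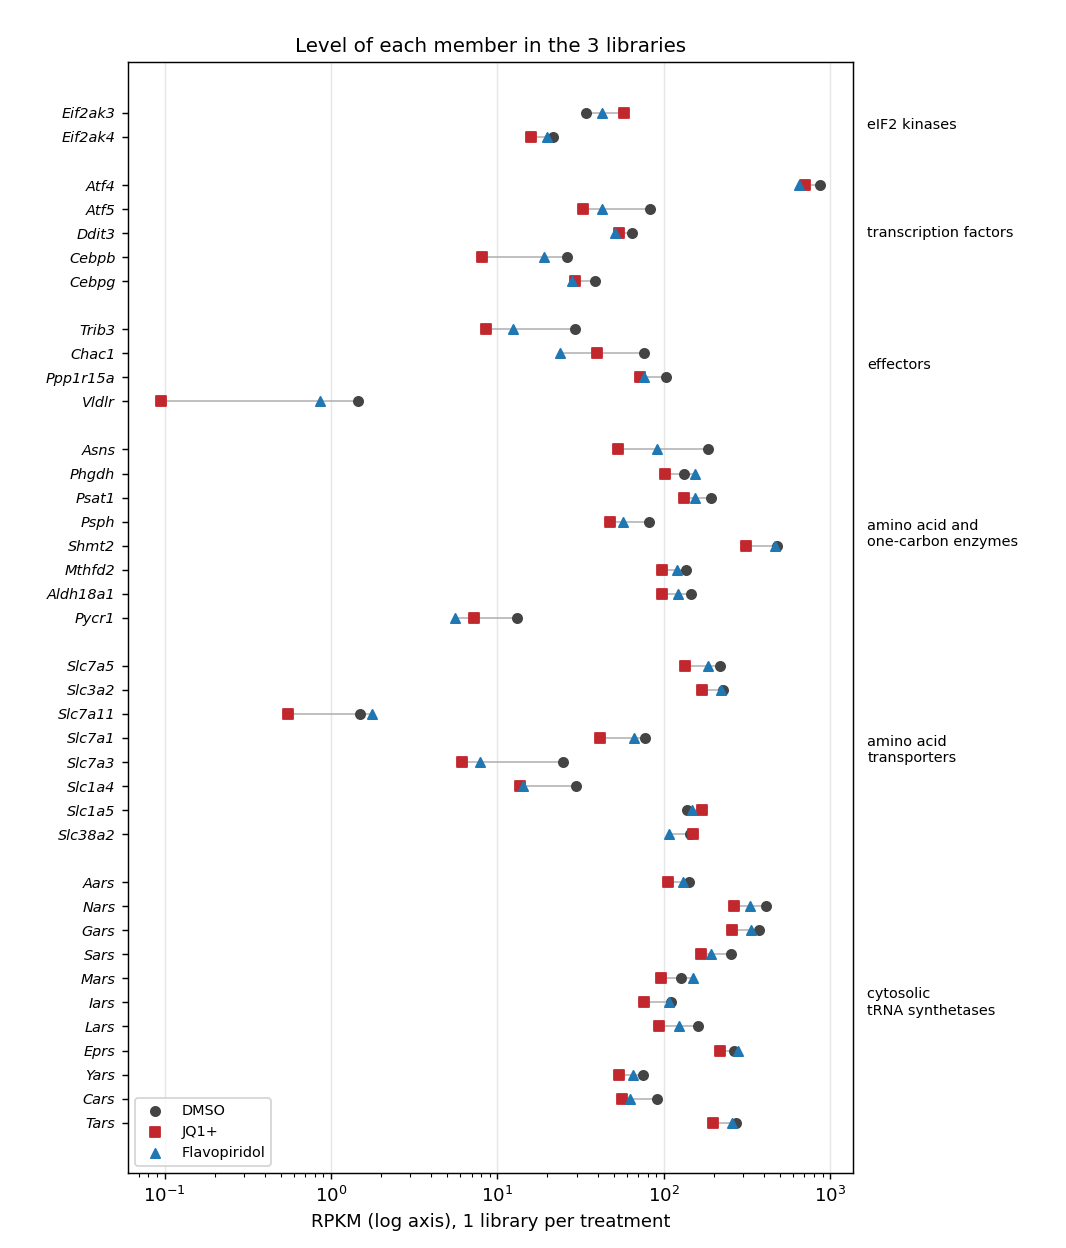
RPKM of the 38 genes (log axis) in the DMSO, JQ1+ and flavopiridol libraries, 1 point per library, grouped by role; the grey line joins the lowest and highest library. JQ1+ is the lowest point in most rows, while Eif2ak3, Slc1a5 and Slc38a2 are highest in JQ1+, and Chac1 and Pycr1 are among the genes lowest in flavopiridol.

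ATF4 and its C/EBP partners bind composite sites known as C/EBP-ATF response elements, whose core was searched as TGATGNAA, with N any base, on both strands of RefSeq promoter windows (build GRCm38.p6, 250 bases before to 50 after each start). Of the 38 members, 32 had a window, 1 of them through an older symbol. The core was present in 12 of the 32 (37.5%), against 1219 of all 27025 genes in the table (4.51%) and 239 of the 8683 tested genes that had a window (2.75%). The members include known ATF4 targets, so this share is not independent of how they were chosen. Shown here are the sites of the 5 members with the core that fell with a drug, of Vldlr, which was past 2-fold in JQ1+ but whose level was too low for the tested genes, and of a pair of tRNA synthetases that stayed within the 2-fold rule. Each window has 30 bases, 5′ to 3′ on the gene's strand, with the core in capitals; a core on the opposite strand reads TTNCATCA.
Asns: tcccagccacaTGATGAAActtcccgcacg
Chac1: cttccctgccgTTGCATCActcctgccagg
Trib3: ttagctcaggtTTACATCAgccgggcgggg
Vldlr: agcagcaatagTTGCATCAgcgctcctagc
Pycr1: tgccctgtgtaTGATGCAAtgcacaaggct
Slc1a4: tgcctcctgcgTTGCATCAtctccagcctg
Iars: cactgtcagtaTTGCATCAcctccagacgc
Tars: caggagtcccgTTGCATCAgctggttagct

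The windows lie at chr6:7693214-7693243 (minus strand) for Asns, chr2:119351038-119351067 (plus strand) for Chac1, chr2:152344028-152344057 (minus strand) for Trib3 and chr19:27216809-27216838 (plus strand) for Vldlr. The others lie at chr11:120643833-120643862 (minus strand) for Pycr1, chr11:20332699-20332728 (minus strand) for Slc1a4, chr13:49682126-49682155 (plus strand) for Iars and chr15:11399655-11399684 (minus strand) for Tars. Counted from the RefSeq start, with negative positions before it and positive ones after it, the first base of the core was at -23 in Asns, -193 in Chac1, 15 in Trib3, -200 in Vldlr, -103 in Pycr1, -4 in Slc1a4, 8 in Iars and -15 in Tars. Apart from these, Gars (-30) and Yars (4) held 1 core each, and Slc7a11 (-66 and -47) and Aars (-112 and 10) held 2 each. The letters TTGCATCA or TGATGCAA were the commonest form, while Asns, Gars, Trib3 and the second site of Aars had other bases at the N. A match in these letters is a description and does not show that a factor binds.

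Asns, the member with the largest fall in JQ1+ among those above 100 RPKM in DMSO, carries its core close to the start, and Chac1, the member with the largest fall in flavopiridol, carries it far upstream. Their 250 bases before the start are printed with the core in capitals, Asns at chr6:7693210-7693459 on the minus strand and Chac1 at chr2:119350992-119351241 on the plus strand, both in GRCm38.p6.
Asns: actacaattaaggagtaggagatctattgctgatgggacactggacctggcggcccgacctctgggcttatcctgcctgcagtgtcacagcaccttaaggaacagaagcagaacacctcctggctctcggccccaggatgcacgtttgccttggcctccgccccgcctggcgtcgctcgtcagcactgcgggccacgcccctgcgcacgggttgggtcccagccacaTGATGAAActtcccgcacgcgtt
Chac1: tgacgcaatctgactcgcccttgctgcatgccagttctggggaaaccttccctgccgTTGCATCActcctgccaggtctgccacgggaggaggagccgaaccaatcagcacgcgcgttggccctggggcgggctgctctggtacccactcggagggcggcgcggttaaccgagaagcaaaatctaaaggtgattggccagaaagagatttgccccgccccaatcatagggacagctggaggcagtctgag

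The E-box CACGTG, a palindrome bound by MYC and related factors, was also searched. It lay in 4 of the 32 members' windows (12.5%), those of Aars, Iars, Tars and Aldh18a1, against 8.09% of all genes and 11.9% of the tested genes with a window. Aars, Iars and Tars held both motifs, at separate positions.

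Against DMSO, JQ1+ left most of these genes lower. Of the 37 tested members 6 fell and none rose: the cationic amino acid transporter Slc7a3 (-1.86), asparagine synthetase Asns (-1.79), the pseudokinase Trib3 (-1.66), the transcription factors Cebpb (-1.59) and Atf5 (-1.31), and the neutral amino acid transporter Slc1a4 (-1.07). That is 16.2% of the members, against 5.29% of all tested genes that fell and 1.98% that rose. The change was below 0 in 34 of 37 members, against 59.7% of all tested genes, and the members' median was -0.54, against -0.08. Eif2ak3, Slc1a5 and Slc38a2 were the members above 0. With a 1.5-fold rule 18 members were lower and 1, Eif2ak3, was higher, against 12.7% and 6.1% of all tested genes. Atf4 itself was 1.23-fold lower (interval 1.19 to 1.26), a smaller change than that of Asns or Trib3.

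Flavopiridol also left most members lower than DMSO. Again 6 of 37 fell and none rose: the glutathione-degrading enzyme Chac1 (-1.64), Slc7a3 (-1.54), Trib3 (-1.18), the proline enzyme Pycr1 (-1.10), Asns (-1.004) and Slc1a4 (-1.004). Asns and Slc1a4 lay just past the 2-fold rule, and Atf5 (-0.95) just inside it. The 6 are 16.2% of the members, against 2.88% of all tested genes that fell and 3.55% that rose. In all, 31 of 37 members were below 0, against 36.2% of all tested genes, and the median was -0.32, against 0.13. With a 1.5-fold rule 7 members were lower and none higher, against 7.56% and 12.3% of all tested genes. With a pseudocount of 5 in place of 1, the number that fell with flavopiridol was 2. The share of all tested genes that fell at that pseudocount was not computed, so this number has no background beside it. Whether the members were lower with JQ1+ or with flavopiridol depended on the scaling. After rescaling by the median of ratios their medians were -0.44 with JQ1+ and -0.49 with flavopiridol. At that scaling 5 members fell with JQ1+ and 7 with flavopiridol, among them Atf5 (-1.12). Of all 14765 genes tested at that scaling, 692 fell with JQ1+ and 595 with flavopiridol, against 782 and 426 of 14790 before it. Both comparisons use the same DMSO library, so the comparisons are not independent, and their values are set side by side without a test.

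**Figure D2:**
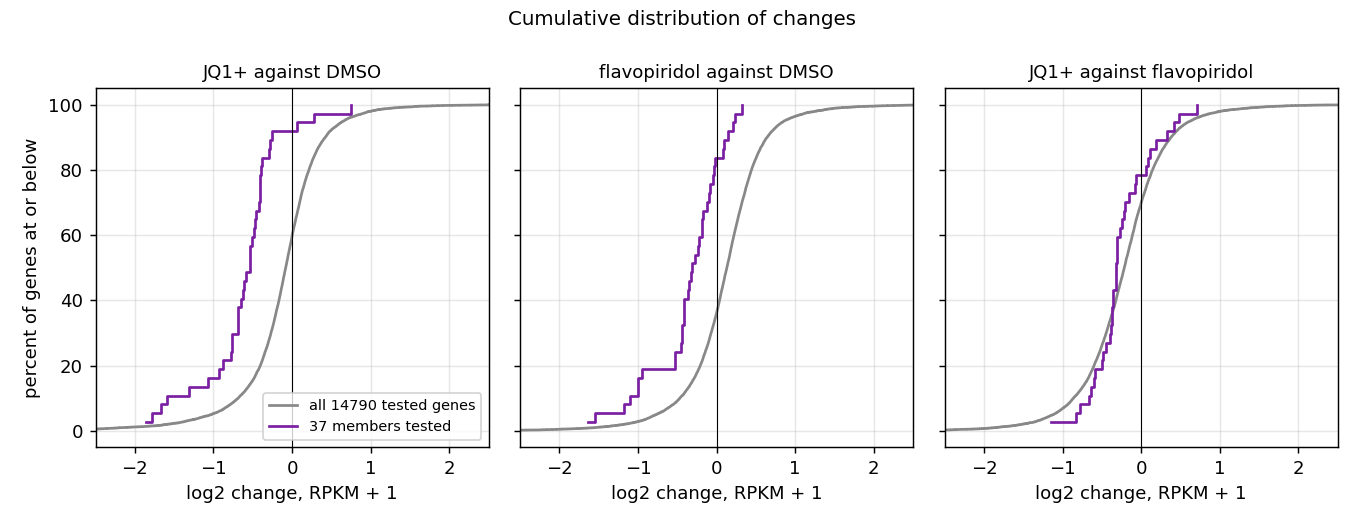
Cumulative percent of genes (vertical axis) at or below each log2 change (horizontal axis, RPKM + 1), for the 14790 tested genes in grey and the 37 tested members in purple, in the 3 comparisons. The members' curve lies left of the grey curve against DMSO, with medians of -0.54 and -0.32, and lies nearer to it between the drugs, with a median of -0.31.

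Between the drugs 1 member, Cebpb, fell, being 2.37-fold lower (interval 1.81 to 3.12) in JQ1+ than in flavopiridol, and no member rose. The call of Cebpb was lost after rescaling the libraries by the median of ratios (-0.89), with a pseudocount of 5 (-0.88) and in CPM (-0.99). This is 2.70% of 37 members, against 6.87% of all tested genes lower and 2.06% higher in JQ1+. The change was below 0 in 29 of 37 members, against 69.9% of all tested genes. The members' median was -0.31 and that of all tested genes -0.21, and after the same rescaling these were -0.047 and 0.04. With a 1.5-fold rule 6 members were lower and 1, Chac1, was higher, against 20.9% and 5.51% of all tested genes. Among members above 0, Chac1 was 1.66 times as high (interval 1.41 to 1.96) in JQ1+ as in flavopiridol, Slc38a2 1.40 times as high (interval 1.33 to 1.46) and Eif2ak3 1.35 times as high (interval 1.26 to 1.44). The doses of the drugs differ.

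The 2 eIF2 kinases differed in the order of the libraries. Eif2ak3 (PERK) stood at 34.0 RPKM in DMSO, 57.7 in JQ1+ and 42.7 in flavopiridol, 1.69 times as high (interval 1.58 to 1.81) in JQ1+ as in DMSO, within the 2-fold rule. Eif2ak4 (GCN2) stood at 21.5 RPKM in DMSO, 15.9 in JQ1+ and 20.0 in flavopiridol. The ratio of Eif2ak3 to Eif2ak4 in RPKM was therefore 1.58 in DMSO, 3.63 in JQ1+ and 2.14 in flavopiridol, with JQ1+ the library that stood apart.

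Among the transcription factors, Atf4 stood at 867 RPKM in DMSO, 706 in JQ1+ and 651 in flavopiridol. DMSO was the highest library and the drugs lay close together. Atf5, a relative of Atf4 that is itself translated under eIF2 phosphorylation, stood at 82.9 RPKM in DMSO, 32.8 in JQ1+ and 42.5 in flavopiridol, 2.53-fold lower (interval 2.27 to 2.82) in JQ1+ and 1.95-fold lower (interval 1.76 to 2.17) in flavopiridol. Cebpb, a C/EBP factor of inflammation and stress, stood at 26.3 RPKM in DMSO, 8.04 in JQ1+ and 19.1 in flavopiridol, and JQ1+ was the low library, 3.27-fold lower (interval 2.55 to 4.22) than DMSO. Flavopiridol had Cebpb 1.38-fold lower (interval 1.14 to 1.68) than DMSO, within the 2-fold rule.

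Ddit3, which encodes the stress factor CHOP, stood at 64.8 RPKM in DMSO, 54.0 in JQ1+ and 50.8 in flavopiridol, 1.20-fold lower (interval 1.08 to 1.33) in JQ1+ and 1.28-fold lower (interval 1.14 to 1.43) in flavopiridol. Cebpg, a C/EBP partner of ATF4, stood at 38.7 RPKM in DMSO, 29.3 in JQ1+ and 28.1 in flavopiridol. Both genes changed less than Atf5 with either drug. The 5 factors were all below 0 with each drug, with a median of -0.39 in JQ1+ and -0.44 in flavopiridol.

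The effectors of the pathway had the lowest median change of the 6 roles, -0.93 with JQ1+ and -1.18 with flavopiridol over the 3 that were tested. Trib3, an ATF4 target that in turn restrains ATF4, stood at 29.4 RPKM in DMSO, 8.60 in JQ1+ and 12.4 in flavopiridol. It was 3.42-fold lower (interval 2.80 to 4.19) in JQ1+ and 2.36-fold lower (interval 1.96 to 2.85) in flavopiridol. Chac1 stood at 76.1 RPKM in DMSO, 39.5 in JQ1+ and 23.8 in flavopiridol, and here flavopiridol was the low library: 3.20-fold lower (interval 2.77 to 3.72) than DMSO, and 1.93-fold lower (interval 1.72 to 2.16) in JQ1+, just inside the 2-fold rule. Ppp1r15a (GADD34), which recruits the phosphatase that reverses eIF2 phosphorylation, stood at 104 RPKM in DMSO, 72.4 in JQ1+ and 76.2 in flavopiridol, with the drugs side by side below DMSO.

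Vldlr, a lipoprotein receptor that ATF4 can induce, was the member outside the tested genes, at 1.46 RPKM in DMSO, 0.095 in JQ1+ and 0.859 in flavopiridol. It had 310 counts in DMSO, 18 in JQ1+ and 149 in flavopiridol, and was 15.4-fold lower (interval 7.09 to 40.5) in JQ1+. The pseudocount reduces this to -1.17 on the log2 scale. The wide interval shows how few reads lie behind it.

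**Figure D3:**
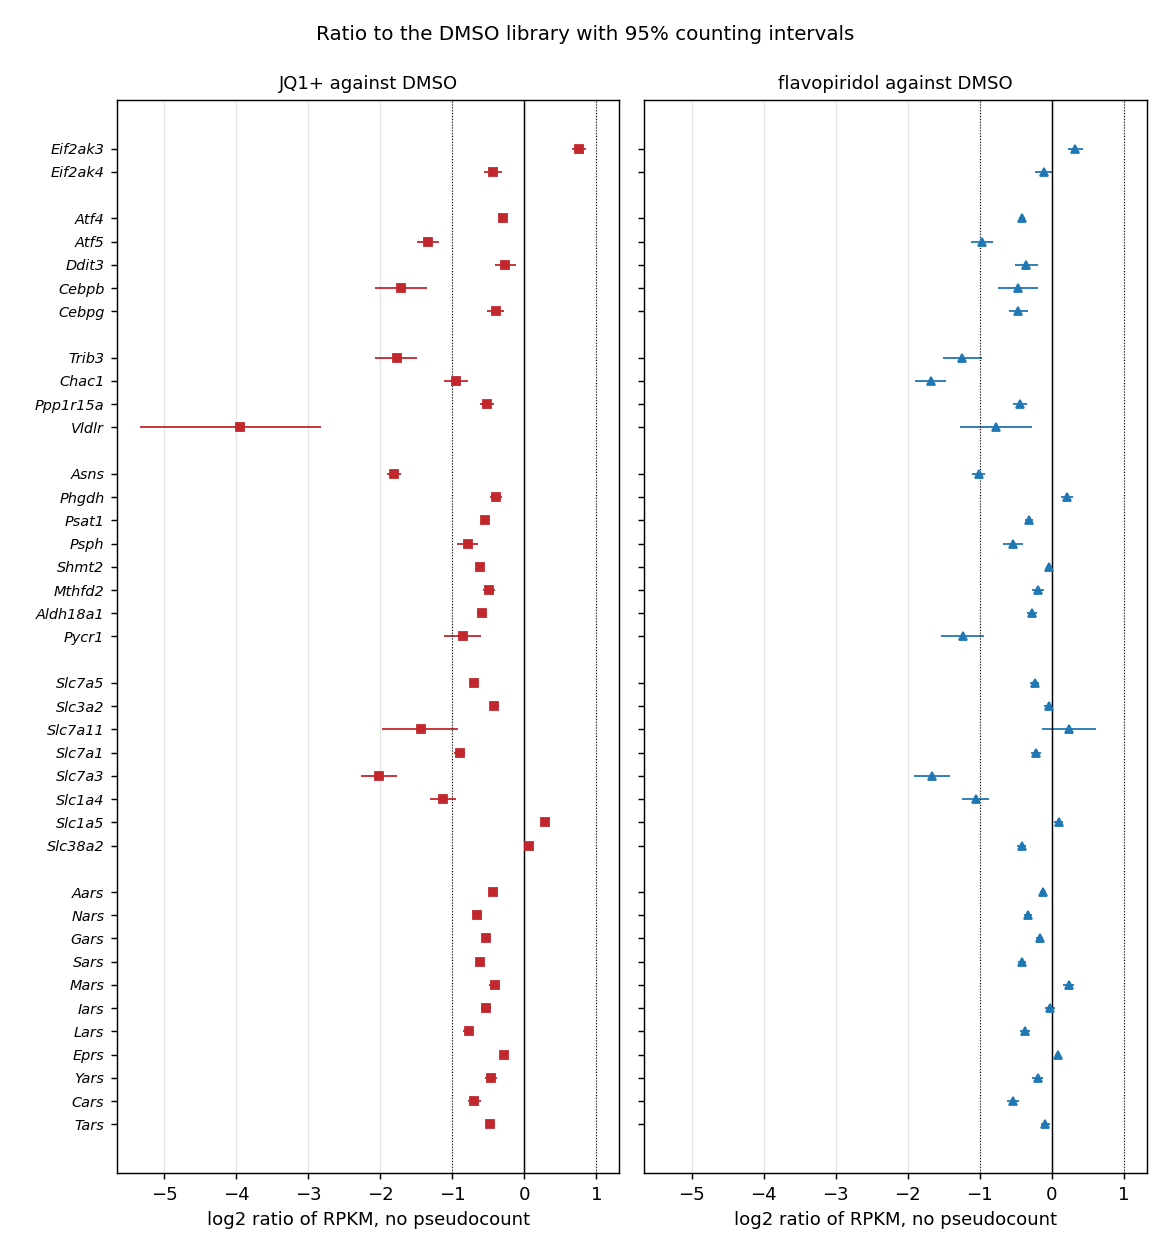
Log2 ratio of plain RPKM to the DMSO library (horizontal axis) for each of the 38 genes, JQ1+ on the left and flavopiridol on the right; bars are 95% counting intervals, and dotted lines mark 2-fold. Vldlr in JQ1+ lies farthest left with the widest bar, and most bars lie left of 0.

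Among the enzymes of amino acid and one-carbon metabolism, Asns had the lowest change with JQ1+ and Pycr1 with flavopiridol. Asns makes asparagine from aspartate and glutamine and stood at 185 RPKM in DMSO, 52.8 in JQ1+ and 91.7 in flavopiridol, 3.50-fold lower (interval 3.26 to 3.76) in JQ1+ and 2.02-fold lower (interval 1.90 to 2.14) in flavopiridol. The libraries were thus ordered DMSO, flavopiridol, JQ1+, and the counting intervals of the drug ratios did not overlap. Pycr1, which makes proline in mitochondria, was much lower expressed at 13.2 RPKM in DMSO, 7.27 in JQ1+ and 5.58 in flavopiridol, 2.36-fold lower (interval 1.92 to 2.90) in flavopiridol and 1.81-fold lower (interval 1.52 to 2.16) in JQ1+. Aldh18a1, which starts proline synthesis from glutamate, stood at 146 RPKM in DMSO, 97.0 in JQ1+ and 121 in flavopiridol.

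The serine enzymes act in a chain: Phgdh oxidises 3-phosphoglycerate, Psat1 transaminates the product, and Psph releases serine. Phgdh stood at 133 RPKM in DMSO, 101 in JQ1+ and 154 in flavopiridol, 1.31-fold lower (interval 1.23 to 1.40) in JQ1+ and 1.16 times as high (interval 1.09 to 1.23) in flavopiridol as in DMSO. Psat1 stood at 192 RPKM in DMSO, 132 in JQ1+ and 154 in flavopiridol, 1.46-fold lower (interval 1.40 to 1.52) and 1.25-fold lower (interval 1.20 to 1.30) respectively. Psph stood at 82.1 RPKM in DMSO, 47.7 in JQ1+ and 56.6 in flavopiridol. None passed the 2-fold rule with either drug. Phgdh, the first step, was highest in flavopiridol, while the later steps Psat1 and Psph were highest in DMSO.

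Serine is passed into the one-carbon pool of mitochondria by Shmt2, and Mthfd2 oxidises the folate that results. Shmt2 stood at 477 RPKM in DMSO, 309.9 in JQ1+ and 465 in flavopiridol, 1.54-fold lower (interval 1.48 to 1.59) in JQ1+. In flavopiridol it was 0.975 times the DMSO level as deposited (interval 0.943 to 1.01), an interval that includes 1 but does not cover the choice of scaling. Mthfd2 stood at 137 RPKM in DMSO, 97.4 in JQ1+ and 120.3 in flavopiridol, 1.40-fold lower (interval 1.32 to 1.49) in JQ1+ and 1.14-fold lower (interval 1.07 to 1.21) in flavopiridol. The 8 enzymes summed to 1365 RPKM in DMSO, 845 in JQ1+ and 1168 in flavopiridol. Their median change was -0.60 with JQ1+ and -0.29 with flavopiridol.

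The 8 amino acid transporters spanned the widest range of the 6 roles, from -1.86 to 0.28 with JQ1+ and from -1.54 to 0.15 with flavopiridol. Slc7a3, which carries arginine and lysine, stood at 25.0 RPKM in DMSO, 6.16 in JQ1+ and 7.91 in flavopiridol, 4.05-fold lower (interval 3.41 to 4.84) in JQ1+ and 3.16-fold lower (interval 2.67 to 3.75) in flavopiridol. Its relative Slc7a1 carries the same amino acids and stood at 77.2 RPKM in DMSO, 41.5 in JQ1+ and 66.2 in flavopiridol, 1.86-fold lower (interval 1.77 to 1.96) and 1.17-fold lower (interval 1.11 to 1.22). The less abundant of these carriers therefore had the larger change. Slc1a4, which exchanges serine, alanine and cysteine, stood at 29.8 RPKM in DMSO, 13.7 in JQ1+ and 14.3 in flavopiridol, 2.18-fold lower (interval 1.93 to 2.47) in JQ1+ and 2.08-fold lower (interval 1.83 to 2.36) in flavopiridol, with the drugs nearly equal.

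Slc7a5 and Slc3a2 form the carrier of leucine and other large neutral amino acids. Slc7a5, its transporting chain, stood at 216 RPKM in DMSO, 134 in JQ1+ and 183 in flavopiridol, 1.62-fold lower (interval 1.55 to 1.69) in JQ1+ and 1.18-fold lower (interval 1.13 to 1.23) in flavopiridol. Slc3a2, the CD98 heavy chain that it shares with other carriers, stood at 226 RPKM in DMSO, 169.5 in JQ1+ and 219.6 in flavopiridol, 1.33-fold lower (interval 1.28 to 1.39) in JQ1+ and 0.971 times the DMSO level (interval 0.931 to 1.01) in flavopiridol. The ratio of Slc7a5 to Slc3a2 was 0.957 in DMSO, 0.789 in JQ1+ and 0.835 in flavopiridol.

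Slc7a11, which imports cystine and also pairs with Slc3a2, was scarce at 1.49 RPKM in DMSO, 0.551 in JQ1+ and 1.76 in flavopiridol. JQ1+ was the low library, 2.71-fold lower (interval 1.90 to 3.93) than DMSO, a change that the pseudocount reduces to -0.68 and that passed the 2-fold rule with a pseudocount of 0.1 (-1.29). Flavopiridol had 1.18 times the DMSO level (interval 0.910 to 1.53), an interval that includes 1. With JQ1+ the glutamine carriers Slc1a5 and Slc38a2 were the transporters above 0. Slc1a5 stood at 139 RPKM in DMSO, 169 in JQ1+ and 148 in flavopiridol. Slc38a2 stood at 144 RPKM in DMSO, 150.1 in JQ1+ and 107 in flavopiridol. JQ1+ was the highest library for both, and flavopiridol was the lowest for Slc38a2 (-0.42). JQ1+ had 1.22 and 1.05 times the DMSO level of Slc1a5 and Slc38a2. As a result the ratio of Slc7a5 to Slc1a5 was 1.56 in DMSO, 0.793 in JQ1+ and 1.24 in flavopiridol.

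The cytosolic tRNA synthetases load amino acids onto tRNA, and the 11 members were lower in JQ1+ by a narrow range. Their changes lay between -0.77 for the leucine enzyme Lars and -0.28 for Eprs, the enzyme of glutamate and proline, with a median of -0.53. None passed the 2-fold rule, and all 11 counting intervals lay below 1. With flavopiridol the range was -0.53 for the cysteine enzyme Cars to 0.23 for the methionine enzyme Mars, with a median of -0.17 and 9 of 11 below 0. Summed, the 11 stood at 2284 RPKM in DMSO, 1583 in JQ1+ and 2029 in flavopiridol.

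Nars, for asparagine, was the most abundant of them at 414 RPKM in DMSO, 264 in JQ1+ and 330.1 in flavopiridol. Gars, for glycine, stood at 375 RPKM in DMSO, 258 in JQ1+ and 333 in flavopiridol. Tars, for threonine, stood at 273 RPKM in DMSO, 196 in JQ1+ and 257 in flavopiridol. In these 3 the order of the libraries was DMSO, flavopiridol, JQ1+. Eprs stood at 263 RPKM in DMSO, 217 in JQ1+ and 278 in flavopiridol, with flavopiridol the highest library, although its change of 0.08 became -0.09 after rescaling by the median of ratios. Sars, for serine, stood at 255 RPKM in DMSO, 166 in JQ1+ and 191 in flavopiridol. Lars stood at 159.9 RPKM in DMSO, 93.4 in JQ1+ and 124 in flavopiridol. Both lay highest in DMSO and lowest in JQ1+, but for Sars the order of the drugs reversed after that rescaling, to 0.08 for JQ1+ against flavopiridol.

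The remaining synthetase members were less abundant. Aars, for alanine, stood at 142 RPKM in DMSO, 106 in JQ1+ and 131 in flavopiridol. Mars stood at 128 RPKM in DMSO, 96.1 in JQ1+ and 150.1 in flavopiridol, highest in flavopiridol. Iars, for isoleucine, stood at 109.9 RPKM in DMSO, 75.8 in JQ1+ and 108 in flavopiridol, where DMSO and flavopiridol lay within counting error of each other, the ratio being 0.982 (interval 0.938 to 1.03). JQ1+ was the low library in each. Cars stood at 90.8 RPKM in DMSO, 56.2 in JQ1+ and 62.7 in flavopiridol, and Yars, for tyrosine, at 74.8 RPKM in DMSO, 54.2 in JQ1+ and 65.5 in flavopiridol; in both, JQ1+ was lowest as deposited, and the order of the drugs reversed after rescaling (0.12 and 0.0037).

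Other synthetase genes were measured beside them. The list held 12 further cytosolic synthetase and partner genes (Wars, Hars, Vars, Rars, Kars, Dars, Qars, Farsa, Farsb, Aimp1, Aimp2 and Eef1e1) and 17 mitochondrial synthetase genes. With JQ1+ the medians were -0.53 for the 11 members, -0.27 for the other cytosolic genes and -0.07 for the mitochondrial genes. With flavopiridol they were -0.17, 0.21 and 0.28, and the number below 0 was 9 of 11, 1 of 12 (Vars, -0.22) and 1 of 17 (Aars2, -0.08). After rescaling by the median of ratios the flavopiridol medians were -0.34, 0.04 and 0.13, with 10 of 11, 3 of 12 and 2 of 17 below 0, and the mitochondrial median with JQ1+ changed sign to 0.02. No test of the difference between these lists was made.

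Among the other cytosolic genes with the largest changes, Kars, for lysine, stood at 320.0 RPKM in DMSO, 251 in JQ1+ and 367 in flavopiridol. Dars, for aspartate, stood at 168 RPKM in DMSO, 134 in JQ1+ and 196 in flavopiridol. Wars, for tryptophan, stood at 66.9 RPKM in DMSO, 48.1 in JQ1+ and 83.7 in flavopiridol, and Eef1e1, a partner in the synthetase complex, at 90.1 RPKM in DMSO, 61.0 in JQ1+ and 116 in flavopiridol. Flavopiridol was the highest library for these 4, unlike for Nars, Gars and Tars. Of the mitochondrial enzymes, Pars2, for proline, stood at 8.40 RPKM in DMSO, 7.10 in JQ1+ and 14.8 in flavopiridol. Yars2, for tyrosine, stood at 17.5 RPKM in DMSO, 11.6 in JQ1+ and 23.1 in flavopiridol, and Rars2, for arginine, at 41.6 RPKM in DMSO, 31.8 in JQ1+ and 56.7 in flavopiridol. All 3 were likewise highest in flavopiridol and lowest in JQ1+. Summed, the 17 mitochondrial genes stood at 371 RPKM in DMSO, 367 in JQ1+ and 509.8 in flavopiridol, where flavopiridol was the high library.

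**Figure D4:**
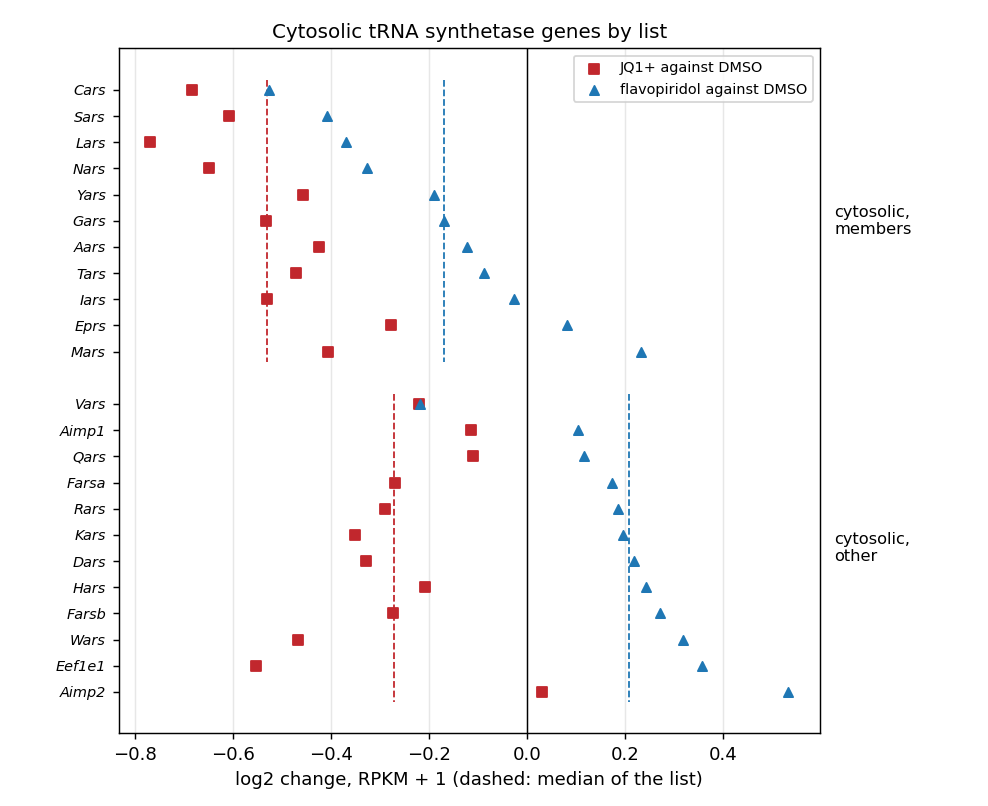
Log2 change (horizontal axis, RPKM + 1) of cytosolic tRNA synthetase and partner genes with JQ1+ (squares) and flavopiridol (triangles) against DMSO; dashed lines are list medians. The triangles lie mostly left of 0 for the 11 members, with a median of -0.17, and right of 0 for all but Vars of the 12 other cytosolic genes, with a median of 0.21.

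The members that hold the response element core were compared with those that do not. The changes of other genes with the core were not examined. Of all tested genes, 2.88% fell with flavopiridol and 5.29% with JQ1+. With flavopiridol, 5 of the 11 tested members with the core fell (Asns, Chac1, Trib3, Pycr1 and Slc1a4) and none of the 20 with a window lacking it; the other that fell, Slc7a3, had no window. This split depended on the settings: after rescaling, Atf5, which lacks the core, also fell (-1.12), and with a pseudocount of 5 Chac1 was the 1 member with the core that still fell. The medians did not follow this order, at -0.19 with the core and -0.29 without. The members with the core ran from -1.64 in Chac1 to 0.15 in Slc7a11, and 5 of them are tRNA synthetases within the 2-fold rule. With JQ1+, 3 of 11 with the core fell (Asns, Trib3 and Slc1a4), and 2 of 20 without it (Cebpb and Atf5), with medians of -0.68 and -0.45. The 4 members with an E-box had a median of -0.50 with JQ1+ and -0.11 with flavopiridol, and none fell. Slc7a5, Slc7a3, Slc1a5, Nars, Lars and Cars had no window.

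Other genes of these pathways were taken from a list of 88, of which 83 were tested. With JQ1+ 11 fell and none rose (5.29% and 1.98% of all tested genes), with a median of -0.24. With flavopiridol 7 fell and none rose (2.88% and 3.55%), with a median of 0.20, close to the 0.13 of all tested genes. Of 13 other stress genes, 6 fell with JQ1+: Nupr1, a stress-induced chromatin protein (-2.69), the cell cycle inhibitor Cdkn1a (-1.60), the translation repressor Eif4ebp1 (-1.51), Atf3, a factor downstream of ATF4 (-1.45), the growth factor Vegfa (-1.44) and Sesn2, which restrains mTORC1 (-1.36). With flavopiridol Nupr1 (-1.05) and Atf3 (-1.02) fell, and Cdkn1a, also a p53 target, stood at 0.89. Nupr1 stood at 9.94 RPKM in DMSO, 0.692 in JQ1+ and 4.30 in flavopiridol.

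Of 19 other enzymes tested, Cth, which makes cysteine from cystathionine, fell most. It stood at 68.4 RPKM in DMSO, 15.5 in JQ1+ and 30.3 in flavopiridol, 4.41-fold lower (interval 3.84 to 5.08) in JQ1+ and 2.26-fold lower (interval 2.02 to 2.54) in flavopiridol. The mitochondrial folate enzyme Aldh1l2 fell with JQ1+ (-1.61) and flavopiridol (-1.11), and the alanine transaminase Gpt2 fell with JQ1+ (-1.58). The cytosolic folate enzymes Shmt1 and Mthfd1 went the other way with flavopiridol, at 0.86 and 0.78, within the 2-fold rule. Shmt1 stood at 64.0 RPKM in DMSO, 55.5 in JQ1+ and 117 in flavopiridol. For its mitochondrial counterpart Shmt2, the interval of flavopiridol against DMSO included 1 as deposited.

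Of 11 other transporters tested, the glycine carrier Slc6a9 fell with both drugs and stood at 12.6 RPKM in DMSO, 2.41 in JQ1+ and 4.89 in flavopiridol. The basic amino acid exporter Slc7a7 stood at 14.3 RPKM in DMSO, 6.80 in JQ1+ and 8.64 in flavopiridol. Its relative Slc7a6 stood at 35.1 RPKM in DMSO, 25.3 in JQ1+ and 43.5 in flavopiridol, and the mitochondrial folate carrier Slc25a32 at 20.4 RPKM in DMSO, 17.5 in JQ1+ and 32.5 in flavopiridol. Of 11 other eIF2 kinases and translation factors, Eif2ak2 (PKR), an interferon-inducible kinase that senses double-stranded RNA, was the one that fell, at 130.4 RPKM in DMSO, 35.4 in JQ1+ and 60.5 in flavopiridol. Between the drugs 6 genes of the list fell (7.23%, against 6.87% of all tested genes) and none rose, and 2 fell after rescaling or in CPM. The eIF2 and eIF2B subunits were within the 2-fold rule against DMSO, and Eif2b3 was 2.11-fold lower (interval 1.88 to 2.38) in JQ1+ than in flavopiridol, just past the rule and within it after rescaling and in CPM. The eIF2 subunits Eif2s1 and Eif2s3x stood at 169 RPKM in DMSO, 146 in JQ1+ and 232 in flavopiridol, and at 128 RPKM in DMSO, 118 in JQ1+ and 194 in flavopiridol, highest in flavopiridol.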

How the data were processed

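Total RNA of 3 libraries, 1 each for DMSO, JQ1+ and flavopiridol, was extracted with Trizol and depleted of ribosomal RNA before Illumina sequencing, per the labels' protocols. The deposited tables give for each gene a count, not normalised, and an RPKM that the authors had scaled for gene length and depth, per the file headers. The build is mm9, per the submitters' processing notes. No source used here names the aligner, the counter, the annotation or whether strand was used, so reads of overlapping or antisense genes and of pseudogene copies cannot be told apart. Groups came from the treatment label.

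Where a symbol had more than 1 row (94 symbols), its most abundant row was taken. Counts summed to 2.84, 2.72 and 2.92 times the total behind the RPKM in DMSO, JQ1+ and flavopiridol, as computed from GENCODE M21 exon lengths. In the same order, those lengths matched that total for 44.8%, 44.2% and 44.6% of the genes used to find it. Counts of 2 were also more frequent than counts of 1, so the counts may not be of independent fragments. Counts were divided by the factors 2.84, 2.72 and 2.92, and exact conditional binomial 95% intervals of each ratio were put on the RPKM scale. The interval formula was tested on simulated independent counts. That simulation covered neither the division by the factors nor counts that are not independent. A floor of 3 counts is 0.0502, 0.0585 and 0.0598 CPM (counts scaled to each library's sum) in the 3 libraries. Since RPKM is relative, a shift common to the whole transcriptome is invisible. Changes used a pseudocount of 1 RPKM, which understates low genes. Members were matched to RefSeq promoters by symbol. The members and lists were chosen with earlier results of these data known. All members are named; genes of the wider list are those past the 2-fold rule or among the largest changes of their subgroup, up to 4 each, and Vars and Aars2, the single exceptions of their lists, were chosen after their values were seen. A few genes that this rule would name are not reported here. Alternative pseudocounts, minimum levels, scalings, row choices and fold rules were tried. Python 3.11.15, pandas 2.3.3, numpy 2.4.6 and scipy 1.17.1 were used.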

Additional observations from a re-analysis of the deposited data

How the results depend on the processing

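No paired analysis was possible because each treatment has 1 library and the labels carry no replicate number. Alternatives were a pseudocount of 0.1 or 5, no minimum level or 5 RPKM, rescaling by the median of ratios, CPM, summed rows of a symbol, and a 1.5-fold rule. With the 1.5-fold rule 18 of 37 members were lower and 1 higher in JQ1+ than in DMSO (12.7% and 6.1% of all tested genes). In JQ1+ against flavopiridol 6 were lower and 1 higher (20.9% and 5.51% of all tested genes). Of the 83 tested genes of the wider list, 18 were lower with JQ1+ (12.7% of all tested genes). With flavopiridol 13 of the 83 were lower and 13 higher (7.56% and 12.3%), and between the drugs 31 were lower (20.9%). A pseudocount of 5 left 2 members and 2 genes of the wider list lower with flavopiridol, and 0 members and 3 genes of the wider list lower between the drugs. Members lower in JQ1+ than in flavopiridol numbered 2 with a pseudocount of 0.1, 2 in CPM and 0 after rescaling by the median of ratios. The wider list gave 2 in each of the last 2 settings. Of all genes tested in those settings, 633 of 13279 were lower in CPM and 574 of 14765 after rescaling. For pseudocounts of 0.1 and 5 the share of all tested genes was not computed. Rescaling moved the members' medians to -0.44 with JQ1+, -0.49 with flavopiridol and -0.047 between the drugs, and that of all tested genes to 0.01, -0.03 and 0.04. It moved the share of lower genes among all called genes from 44.8% to 62.4% with flavopiridol and from 76.97% to 51.9% between the drugs. Rescaling changed the sign of 9 of 111 member values, 7 of them between the drugs, and Eprs (-0.09) and Slc1a5 (-0.07) with flavopiridol; CPM changed 2 of 114, and the other alternatives none. No change past the 2-fold rule changed sign. Single calls lost were Slc1a4 in JQ1+ (-0.97 after rescaling, -0.90 with a pseudocount of 5) and, with a pseudocount of 5 in flavopiridol, Asns (-0.97), Pycr1 (-0.78), Slc1a4 (-0.85) and Trib3 (-0.98). Cebpb between the drugs was -0.88 with a pseudocount of 5, -0.89 after rescaling and -0.99 in CPM. The pseudocount acts by construction on low genes; the cause of the others was not tested.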

Other observations

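Within each library, levels of the pathway's target genes can be set against Atf4 in RPKM, as a description with no test. As Atf4 mRNA is not a measure of ATF4 activity, the ratios do not give target level relative to that activity. The ratio of Asns to Atf4 was 0.213 in DMSO, 0.0748 in JQ1+ and 0.141 in flavopiridol. The ratio of Trib3 to Atf4 was 0.0339, 0.0122 and 0.0191 in the same order, so that JQ1+ was lowest for both. For Chac1 it was 0.0878, 0.0559 and 0.0365, with flavopiridol lowest. For Ddit3 it was 0.0747, 0.0764 and 0.0779, nearly level across the libraries. In the serine chain the ratio of Psat1 to Phgdh was 1.45, 1.30 and 1.001 in DMSO, JQ1+ and flavopiridol, and that of Psph to Phgdh was 0.618, 0.472 and 0.367. These ratios do not depend on how the libraries are scaled to each other.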
